A study of Mus musculus with 2 samples.

Results

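The 42 genes described here copy the genome or supply the deoxynucleotides for it: origin licensing factors, the MCM helicase and its activators, replicative polymerases, the sliding clamp and its loader, Okazaki fragment enzymes, nucleotide synthesis enzymes, the CAF-1 histone chaperone, E2F factors and cyclin E. They were taken by gene symbol from a list of licensing, fork and nucleotide synthesis genes known to mark the G1/S transition and S phase, a rule that uses no measured value. All 42 were found among the 55536 genes of the deposited gene table, 22028 of them protein-coding. The RNA, selected for poly(A) tails, came from regulatory T cells labelled as activated, primary cells of 1 adult male mouse aged 4 months of the strain Foxp3CreERT2 x Rosa26YFP. In that strain the Foxp3 locus drives a tamoxifen-inducible Cre recombinase and Rosa26 carries a yellow fluorescent reporter. The sources used here do not state whether tamoxifen was given, how the cells were sorted or activated, or from which tissue, and the labels trace the cells to a bone marrow haematopoietic cell. The samples were 2 technical libraries of biological replicate 1, so there was 1 group, no untreated sample and no second animal. Values are given for library 1 and library 2 in that order, and mean ± SD is over these libraries (n = 2 technical libraries of 1 biological sample), which leaves out the spread between animals.

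Regulatory T cells, a CD4 lineage defined by Foxp3, hold immune responses in check, and most of them rest in G0 until antigen and interleukin-2 drive them to divide. A dividing cell loads MCM helicases onto origins in G1, fires them in S phase through Cdc45 and GINS, and then copies both strands behind each fork. E2F factors are released from retinoblastoma proteins when G1 cyclins and their kinases become active. They are known to drive most of the genes described here, whose transcripts are therefore scarce in resting cells and abundant in cycling ones. In RNA from many cells, fewer cells of a type and less RNA per cell cannot be told apart.

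The libraries held 15076048 and 14635787 estimated gene reads, and the 42 genes took 0.237% and 0.255% of them. The regulatory T cell markers were all present, with Foxp3 at 22.4 ± 2.06 TPM, Ctla4 at 232 ± 23.9, Il2ra at 239 ± 4.31 and Ikzf2 at 468 ± 3.01. TPM is a share of all transcripts after each gene's reads are divided by transcript length, so levels of different genes can be set side by side. The 19 markers of B cells, erythroid cells, monocytes and macrophages, plasma cells and cytotoxic T cells summed to 34.9 and 40.1 TPM, against 1725 and 1919 TPM for the 6 regulatory T cell markers. Of the 6, Cd4 (181 and 243 TPM) and Cd3e (598 and 698 TPM) are shared with other CD4 T cells, for which the 19 hold no marker. The highest of the 19 were Cd8b1 of cytotoxic T cells at 9.94 and 14.81 TPM and the haemoglobin genes Hba-a2 at 6.70 and 6.90 and Hbb-bs at 6.27 and 4.74 TPM, whose part in the levels given here was not tested. Cd8a was at 1.43 and 0.79 TPM. Of the 19, 10 averaged under 1 TPM, and Cd14 and Mzb1 were among those listed at 0.

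All 42 genes passed the filter on low counts (10 reads summed over both libraries), and 40 of them reached 1 TPM in both libraries, or 95.2%. That level was reached by 75.1% of the 17271 genes that passed the same filter and by 46.2% of all protein-coding genes. At 10 TPM the share was 66.7% (28 of 42) against 41.8% of filtered genes, and at 100 TPM it was 7.14% (Rpa1, Pcna and Rrm2) against 7.65%. The filtered genes include noncoding ones, and of the 12227 filtered protein-coding genes 9.46% reached 100 TPM. The median level was 4.56 ± 0.16 on the log2(TPM + 1) scale, against 2.96 ± 0.030 for all filtered genes. By deposited TPM the 42 genes thus mostly lay above the median of the filtered genes, but few reached 100 TPM. The share above 100 depends on the table: by the whole-number GENCODE M4 counts per kilobase, scaled to the same total as TPM over protein-coding genes, it was 52.4% (22 of 42), against 22.5% of 12227 filtered protein-coding genes. By role and deposited TPM, nucleotide supply had the highest median (68.7 TPM), followed by the clamp, its loader and RPA (57.7 TPM) and the MCM helicase (47.0 TPM). Polymerases and primase had a median of 16.7 TPM, licensing factors 12.6 TPM, helicase activators 6.61 TPM, and the E2F and cyclin E group 5.95 TPM. When the genes were put in order of mean TPM, 27 of 41 neighbouring pairs had overlapping library ranges, so much of the fine order lies within the spread of the libraries. The lowest genes, Chaf1a and E2f1, overlapped each other and lay below Orc1. At the top, by deposited TPM, Rpa1 lay above Pcna and Pcna above Rrm2 in both libraries without overlap. On coding transcripts alone, Rpa1 (114 and 133 TPM) and Pcna (118 and 114 TPM) overlapped.

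**Figure D1:**
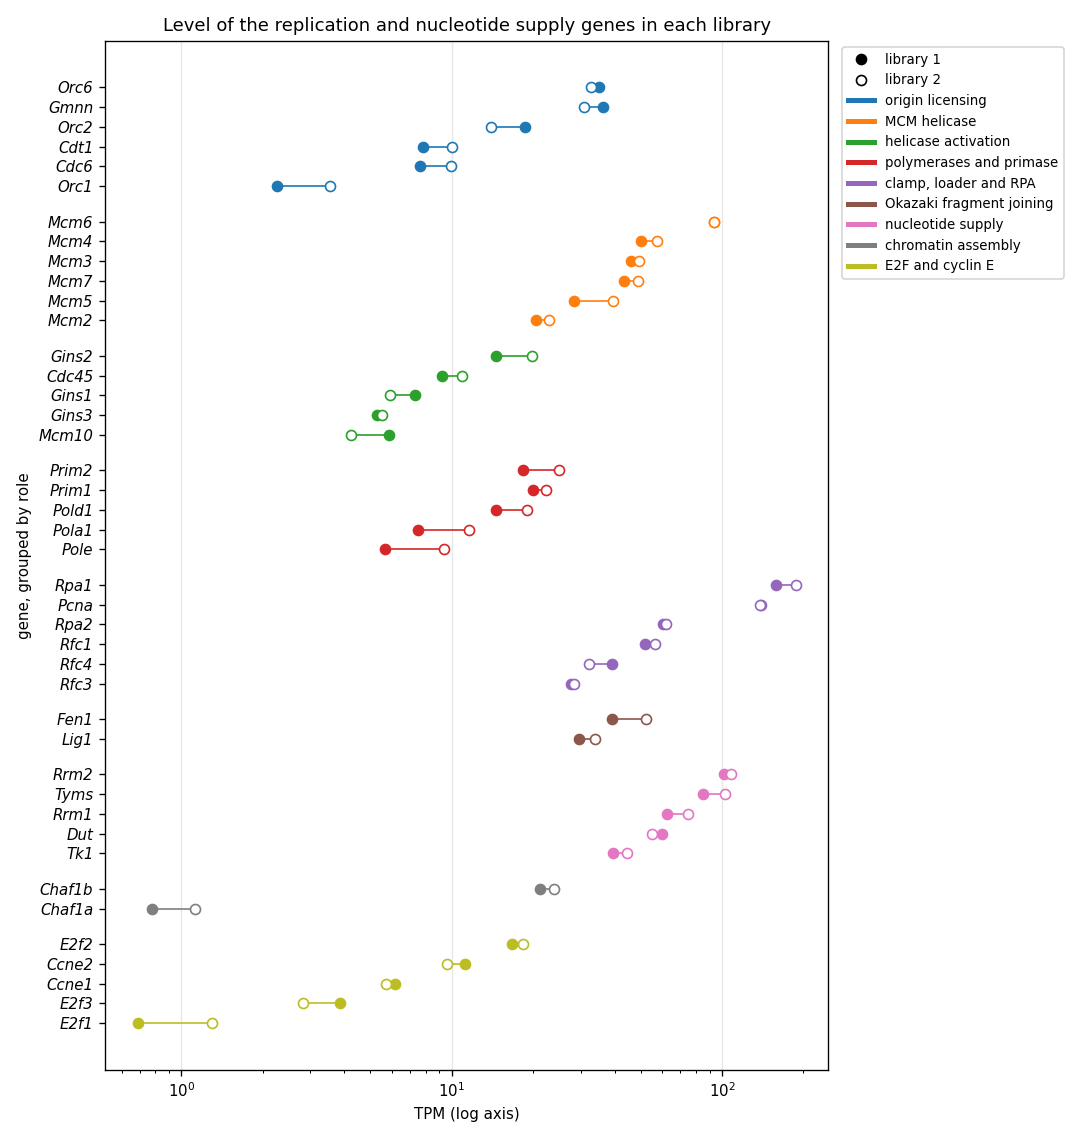
TPM (log axis) of each of the 42 genes in library 1 (filled) and library 2 (open), grouped and coloured by role, with a line joining the libraries. The plot runs from E2f1 at 0.69 and 1.30 TPM to Rpa1 at 158 and 187 TPM, and the nucleotide supply genes all lie at 39.6 TPM or more.

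The promoters are shown here because most of these genes are textbook E2F targets and the windows let a reader see the letters. RefSeq promoter windows on GRCm38.p6, from 250 bases before each annotated start to 50 bases after it, were found for 35 of the 42 genes (42 windows, some genes having several starts). None was matched for Gins1, Gins2, Pole, Prim2, Mcm4, Gmnn or Ccne2. RefSeq starts can differ from those of GENCODE M21. Every window of E2f1, Dut, Cdc6 and Mcm7 lay inside the M21 gene, downstream of its outermost start, so bases at that start were not searched. The E2F words searched were TTTCCCGC, TTTCGCGC, TTTGCCGC and TTTGGCGC, on both strands. At least 1 of them occurred in 14 of the 35 genes (40.0%) and in 33.3% of their windows. The same words occurred in 2.26% of all 32851 windows and in 4.16% of the 10309 windows of protein-coding genes at 1 TPM or more in both libraries. The pentamer CCAAT, the box bound by NF-Y, occurred in 61.9% of the windows, against 37.4% of all windows and 38.4% of those of the expressed protein-coding genes. The GC box GGGCGG occurred in 71.4%, against 35.7% and 63.0%, and TTTGAA, the core of the cell cycle homology region, in 14.3%, against 17.9% and 12.4%. Each motif was counted by itself, so a base can belong to more than 1 match. The 5 windows with more than 1 E2F word follow, 5′ to 3′ on the gene's strand, with E2F words or their reverse complements in capitals.
Mcm6, chr1:128359656-128359955 (minus strand): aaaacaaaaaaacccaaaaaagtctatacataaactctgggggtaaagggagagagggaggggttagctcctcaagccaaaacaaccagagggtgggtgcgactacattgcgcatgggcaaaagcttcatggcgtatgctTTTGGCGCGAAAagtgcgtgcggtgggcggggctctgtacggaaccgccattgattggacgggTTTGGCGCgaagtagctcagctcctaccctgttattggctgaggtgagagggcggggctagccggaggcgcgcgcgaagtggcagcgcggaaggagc
Mcm3, chr1:20820263-20820562 (minus strand): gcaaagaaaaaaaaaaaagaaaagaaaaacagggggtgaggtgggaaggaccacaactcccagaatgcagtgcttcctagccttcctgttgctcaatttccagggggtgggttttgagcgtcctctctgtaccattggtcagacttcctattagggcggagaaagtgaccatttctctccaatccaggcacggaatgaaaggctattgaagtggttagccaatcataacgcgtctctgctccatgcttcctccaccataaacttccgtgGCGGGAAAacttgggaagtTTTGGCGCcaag
Mcm5, chr8:75109259-75109558 (plus strand): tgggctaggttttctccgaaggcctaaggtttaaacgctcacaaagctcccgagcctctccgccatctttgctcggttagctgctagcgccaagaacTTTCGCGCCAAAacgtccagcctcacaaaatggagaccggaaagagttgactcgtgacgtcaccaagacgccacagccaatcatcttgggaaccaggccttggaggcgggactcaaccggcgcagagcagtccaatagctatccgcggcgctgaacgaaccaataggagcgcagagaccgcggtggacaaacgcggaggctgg
Mcm7, chr5:138171834-138172133 (minus strand): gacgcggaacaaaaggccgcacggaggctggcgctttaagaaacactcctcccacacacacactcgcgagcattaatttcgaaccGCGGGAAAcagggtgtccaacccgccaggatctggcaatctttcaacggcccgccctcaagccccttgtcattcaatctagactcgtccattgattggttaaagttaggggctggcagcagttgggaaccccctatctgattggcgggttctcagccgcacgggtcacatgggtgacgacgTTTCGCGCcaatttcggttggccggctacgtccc
Rfc3, chr5:151651159-151651458 (minus strand): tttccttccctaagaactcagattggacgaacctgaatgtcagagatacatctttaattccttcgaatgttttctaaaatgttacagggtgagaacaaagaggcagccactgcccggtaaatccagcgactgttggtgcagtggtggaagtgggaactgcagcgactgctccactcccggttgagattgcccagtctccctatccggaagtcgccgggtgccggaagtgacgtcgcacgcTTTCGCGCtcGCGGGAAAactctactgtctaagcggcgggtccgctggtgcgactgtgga
Of these, 4 belong to subunits of the MCM helicase and the other to Rfc3, a subunit of the clamp loader. In Mcm6 the words began at positions -110, -106 and -47 relative to the RefSeq start (position 1), and the first 2 overlapped. Mcm5 carried an overlapping pair at -153 and -149. In Mcm3 the words began at 20 and 39, in Mcm7 at -165 and 17, and in Rfc3 at -10 and 1. A single word was present in Orc1, Cdc6, Cdt1, Gins3, Pola1, Pold1, Lig1, E2f2 and E2f3. Genes with a word did not have the higher levels: their median was 17.1 TPM (n = 14 genes), against 35.7 TPM for those without one (n = 21 genes). Pcna, Rrm2, Rpa1 and Tyms, which head the order of levels, held none of the 4 words in these windows. A match is a string of letters in a window and is no measurement of binding.

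Origin licensing begins with the origin recognition complex, whose subunits differed widely. Orc1, the subunit that is known to be made and destroyed with the cell cycle, was at 2.25 and 3.53 TPM. Orc2 was at 18.7 and 14.0 TPM, and Orc6 at 34.99 and 32.86 TPM. The other subunits were higher still: Orc5 averaged 39.3 TPM, Orc4 71.4 TPM and Orc3 75.3 TPM. Within each library the highest subunit stood 27.9 ± 11.5 times above Orc1, and Orc1 rested on 80 and 69 reads. Cdc6 and Cdt1, the factors that load MCM helicases onto the complex, were close to each other. Cdc6 was at 7.61 and 9.92 TPM, and Cdt1 at 7.83 and 10.04 TPM. Gmnn, which encodes geminin, the inhibitor that binds Cdt1 after S phase begins, was higher than both at 36.2 and 30.7 TPM. The ratio of Cdt1 to Gmnn was 0.272 ± 0.078.

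The 6 subunits of the MCM helicase, which assemble in equal numbers into a ring, did not have equal transcript levels. Mcm6 was highest at 93.5 and 93.3 TPM, with library values closer than for any other MCM gene. Mcm4 was at 50.2 and 57.6 TPM, Mcm3 at 46.1 and 49.3 TPM, and Mcm7 at 43.5 and 49.0 TPM. Mcm3 and Mcm7 overlapped between libraries, whereas Mcm3 and Mcm4 did not. Mcm5 was at 28.4 and 39.6 TPM and Mcm2, the lowest, at 20.4 and 23.0 TPM. Mcm6 was 4.32 ± 0.37 times Mcm2, a wider gap than the highest over the lowest subunit gave by reads per kilobase of the longest coding transcript (3.13, or 2.81 with the whole-number M4 counts). The median of the 6 was 2.96 ± 0.80 times the median of Orc1, Orc2 and Orc6. That ratio leaves out Orc3, Orc4 and Orc5, which were all higher, so it does not describe the whole origin recognition complex.

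The factors that turn a loaded MCM ring into a moving helicase were among the lowest of the 42. Cdc45, which binds the ring together with GINS, was at 9.20 and 10.9 TPM. Of the GINS subunits, Gins3 was at 5.29 and 5.53 TPM, Gins1 at 7.29 and 5.92 TPM and Gins2 at 14.6 and 19.9 TPM. The remaining subunit, Gins4, was the highest at 19.3 and 27.0 TPM. Mcm10, needed for the activated helicase to move, was at 5.84 and 4.25 TPM. On coding transcripts alone, Mcm10 was at 1.59 and 2.74 TPM and Gins2 at 6.46 and 5.57 TPM. Of the Gins2 exonic bases, 67.3% overlap Gse1 (2.16 and 3.70 TPM) on the opposite strand, and the sources used here do not state whether counting used strand.

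In each polymerase holoenzyme with a member here, the catalytic gene was the lowest subunit. Pola1, the catalytic subunit of polymerase alpha, was at 7.52 and 11.6 TPM, below its partners. The primase genes Prim1 (20.01 and 22.40 TPM) and Prim2 (18.3 and 25.0 TPM), which lay the RNA primers, had a ratio of 0.994 ± 0.139. Pold1, the catalytic subunit of the lagging-strand polymerase delta, was at 14.5 and 18.9 TPM, overlapping Pold2 at 15.6 and 21.7 TPM. The small subunit Pold4 reached 88.3 and 93.2 TPM, 5.51 ± 0.81 times Pold1. Pole, the catalytic subunit of the leading-strand polymerase epsilon, was at 5.65 and 9.38 TPM, and the histone-fold subunit Pole4 was 7.67 ± 3.07 times higher.

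The clamp, its loader and the single-strand binding protein included the highest genes of the 42. Rpa1, the large subunit of the heterotrimer that coats single-stranded DNA, was at 158 and 187 TPM. Rpa2 was at 60.7 and 61.9 TPM and Rpa3 at 61.8 and 60.3 TPM, so the smaller subunits had nearly the same level. Rpa1 was 2.81 ± 0.30 times Rpa2 by TPM and 1.60 times by reads per kilobase of the longest coding transcript. Pcna, the sliding clamp that holds polymerases on DNA, was at 140 and 138 TPM. Among clamp loader genes, the large subunit Rfc1 was at 52.0 and 56.4 TPM, Rfc3 at 27.6 and 28.4 TPM and Rfc4 at 39.1 and 32.2 TPM. Rfc2 was highest at 113 and 137 TPM and Rfc5 lowest at 24.33 and 26.03 TPM, a ratio of 4.94 ± 0.44. Counting protein-coding transcripts alone, Rfc1 was at 18.0 and 20.3 TPM, below Rfc3 at 22.5 and 23.2 TPM. Behind the fork, Fen1, the nuclease that trims Okazaki flaps, was at 39.1 and 52.3 TPM. Lig1, the ligase that seals them, was at 29.5 and 33.8 TPM. Fen1 and Lig1 did not overlap between libraries, although 78.8% of the exonic bases of Fen1 overlap the antisense gene Gm10143.

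**Figure D2:**
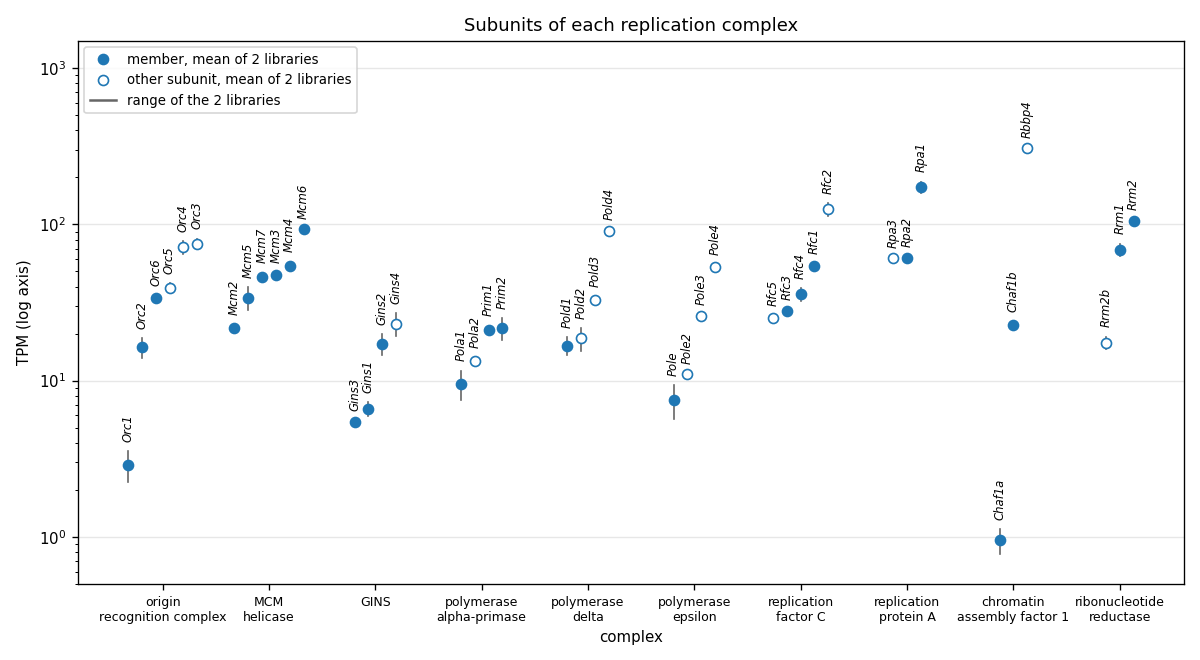
Mean TPM (log axis) of every subunit of 10 replication complexes, with members filled, other subunits open and bars spanning the 2 libraries. The MCM helicase spans 4.32-fold from Mcm2 to Mcm6, whereas Chaf1a lies at 0.95 TPM beside Chaf1b at 22.6 and Rbbp4 at 307.

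The nucleotide supply enzymes formed the highest group by deposited TPM, but not by reads per kilobase of the longest coding transcript, where their median was 60.9 against 69.6 for the clamp group and 67.8 for the MCM helicase. Rrm2, the radical-bearing subunit of ribonucleotide reductase that is known to be destroyed after S phase, was at 102 and 108 TPM. Rrm1, its stable catalytic partner, was at 62.5 and 75.0 TPM, and the ratio of Rrm1 to Rrm2 was 0.654 ± 0.056. Rrm2b, the alternative small subunit used for repair and in resting cells, was lower at 19.1 and 15.9 TPM. Tyms, which makes thymidylate from deoxyuridylate, was at 84.8 and 103 TPM. Dut, which removes dUTP, was at 60.1 and 55.2 TPM, and Tk1, the salvage kinase for thymidine, at 39.6 and 44.6 TPM. All 5 were thus above the median of the 42 genes, which was 22.1 TPM.

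CAF-1, the chaperone that places histones on new DNA, had the widest span from lowest to highest subunit among the complexes described. Chaf1a, its large subunit, which binds the clamp, was at 0.78 and 1.12 TPM, and Chaf1b was at 21.3 and 23.9 TPM. The ratio of Chaf1a to Chaf1b was 0.0418 ± 0.0071, and Rbbp4, a histone-binding subunit shared with many complexes, was at 312 and 302 TPM. The wide span rests on Rbbp4, which was 335 ± 92.3 times Chaf1a, against 27.9 ± 11.5 for Orc3 over Orc1. The Chaf1a value rested on 60 and 75 estimated reads, and its deposited posterior SD reached 10.4% of those reads, the highest share among the 42 genes. Ubxn6, at 31.9 and 28.2 TPM, overlaps 52.5% of Chaf1a exonic bases on the opposite strand, and the part of that overlap in the Chaf1a estimate was not tested.

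Of the regulators, E2f2 was the highest activating E2F at 16.6 and 18.4 TPM. E2f3 was at 3.85 and 2.81 TPM and E2f1 at 0.69 and 1.30 TPM, the latter from only 23 and 41 reads. E2f2 lay above E2f3 and E2f3 above E2f1 in both libraries, without overlap by TPM. The ratio of E2f3 to E2f1 was 3.87 ± 2.42, with 5.58 in library 1 and 2.16 in library 2, and by M4 counts per kilobase it was 2.64 and 0.561, so that the order in library 2 turned. Ccne1 and Ccne2 encode cyclin E, the partner of Cdk2 at the G1/S transition. Ccne1 was at 6.16 and 5.73 TPM and Ccne2 at 11.2 and 9.64 TPM, a ratio of 0.572 ± 0.031.

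Transcript tables show which annotated forms carried these levels. Each of the 42 genes has several annotated transcripts, and 34 had the same leading transcript by TPM in both libraries. The genes whose leader differed were Mcm5, Mcm10, Cdc45, Pold1, Pole, Fen1, E2f1 and E2f3. Taking the mean of both libraries, the leader was protein-coding for 39 genes. Protein-coding transcripts took a median of 88.2% and 88.0% of a gene's TPM, and at least 90% in both libraries for 15 genes. The median gene was thus mostly of coding form, but 12 genes carried 10% or more of their TPM in retained-intron transcripts in both libraries.

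Tyms (ENSMUSG00000025747.12, chr5:30058202-30073617 on mm10, minus strand) was the clearest exception. Its protein-coding transcripts took 27.7% and 20.9% of its TPM, and 17.8% and 17.1% of its reads. The leader by TPM was Tyms-205, a 618-base transcript annotated for nonsense-mediated decay, at 31.7% ± 2.55 of TPM. By reads, the leader was Tyms-206, a retained-intron form of 2723 bases with 38.7% and 39.3%. On coding transcripts alone Tyms was at 22.5 ± 1.36 TPM and 19th of the 42 genes, rather than 4th. Rfc1 and Gins2 also had under 50% of TPM in coding form, but not of reads. For Rfc1, a retained-intron transcript of 485 bases held 64.9% and 63.0% of TPM and only 15.2% and 14.7% of reads. For Gins2, a retained-intron transcript of 511 bases held 50.4% and 57.2% of TPM and 11.9% and 18.8% of reads. In both genes a short transcript with few reads thus took most of the length-scaled level. On coding transcripts alone, Rpa1 was at 124 ± 13.6 TPM, Pcna at 116 ± 2.54, Rrm2 at 102 ± 4.86 and Mcm6 at 92.4 ± 1.16, which were then the top 4.

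**Figure D3:**
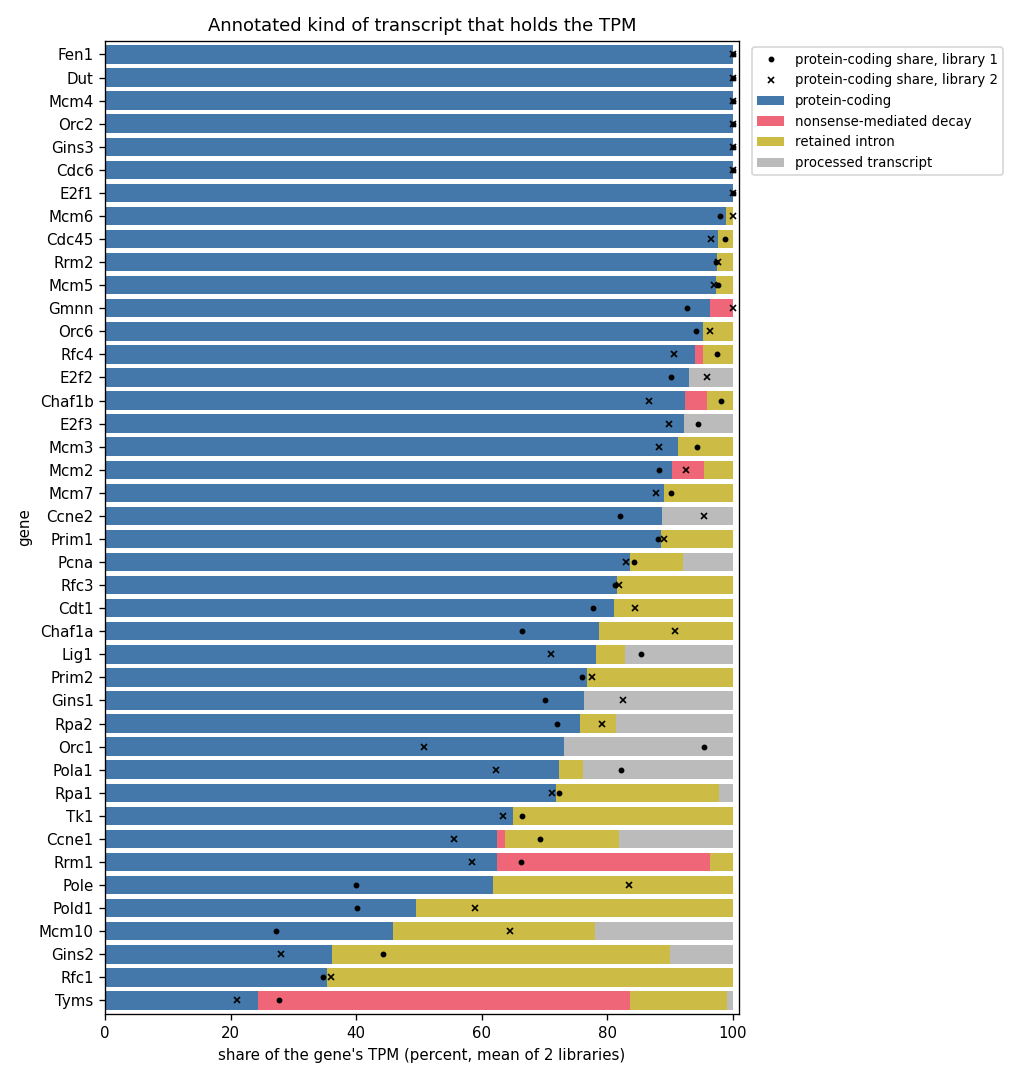
Share of each gene's TPM (percent, mean of 2 libraries) by annotated kind of transcript, with the protein-coding share of library 1 (dots) and library 2 (crosses). Tyms is lowest, with coding shares of 27.7% and 20.9%, and Orc1, Pole and Mcm10 show wide gaps between the libraries.

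The only test these samples allow is of library 2 against library 1, which compares technical libraries, not conditions, and covers counting error only. By the exact binomial test with Benjamini-Hochberg adjustment, 13 of the 42 genes differed (31.0%), against 24.3% of all 17271 genes tested. Of these, 11 were higher in library 2 (background 12.7% of all genes) and 2 were higher in library 1 (background 11.6%). A binomial test calls a given difference more readily the more reads a gene has, and these shares are not matched for reads. The 42 genes had a median of 22.1 TPM, against 6.81 TPM for all tested genes, and the part of read number in the shares was not tested. The median log2 ratio of reads, library 2 over library 1, was 0.08 for the 42 genes and -0.01 for all tested genes. With a negative binomial dispersion of 0.01 in edgeR, which allows a variation beyond counting, 1 of the 42 was called, Pold1, against 2.85% of all genes.

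Pold1 (ENSMUSG00000038644.14, chr7:44532746-44548849 on mm10, minus strand) had the largest difference among the genes that passed, with 247 reads in library 1 and 435 in library 2. Its log2 ratio was 0.86 (adjusted p = 2.14e-12, exact binomial test; adjusted p = 0.0188, edgeR exact test at the dispersion of 0.01). Its TPM values, 14.5 and 18.9, were closer, and its effective length, the length by which TPM divides reads, was 1372 bases in library 1 and 1965 in library 2. On coding transcripts alone, Pold1 was at 5.83 and 11.17 TPM, which were not closer. Retained-intron transcripts held 59.8% and 41.0% of its TPM. Mcm5 had 918 and 1185 reads, a log2 ratio of 0.41 (adjusted p = 3.65e-09, exact binomial test). Fen1 had 1038 and 1322 reads (0.39), Prim2 461 and 591 (0.40), and Rpa1 4452 and 4926 (0.19). Mcm7 (0.28), Tyms (0.24), Mcm2 (0.21), E2f2 (0.18) and Mcm4 (0.16) also passed on the higher side. Pole passed narrowly with 241 and 292 reads (log2 ratio 0.32, adjusted p = 0.0498, exact binomial test). Those higher in library 1 were Rfc4, with 565 and 398 reads (-0.46), and E2f3, with 207 and 137 reads (-0.55). Of the 6 MCM ring genes 4 passed, all higher in library 2, and Mcm3 and Mcm6 did not (-0.01 and -0.02). By M4 counts Mcm4, Mcm7, Pole, Tyms, E2f2 and E2f3 no longer passed. E2f1 had a ratio as large as Pold1 (0.86) but too few reads to pass (adjusted p = 0.0846, exact binomial test).

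GC content moved with these ratios. Across 9673 genes with 100 reads or more, Spearman's rho between GC content and the log2 ratio was 0.24, and across the 42 genes it was 0.41, genes that share both libraries and are no independent replicates. The 11 genes higher in library 2 had a median GC content of 51.9% and the 29 that did not pass 48.7%, and the part of GC content in the result was not tested. Reads and TPM did not always point the same way: Orc1, Gins2, Gins3, Mcm3 and Chaf1b had higher TPM but a lower share of reads in library 2. For Orc1 the effective length was 2857 bases in library 1 and 1672 in library 2, and its coding transcript held 95.4% and 50.9% of TPM. By reads that transcript held 99.0% and 90.2%, and on it alone Orc1 was at 2.15 and 1.80 TPM.

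**Figure D4:**
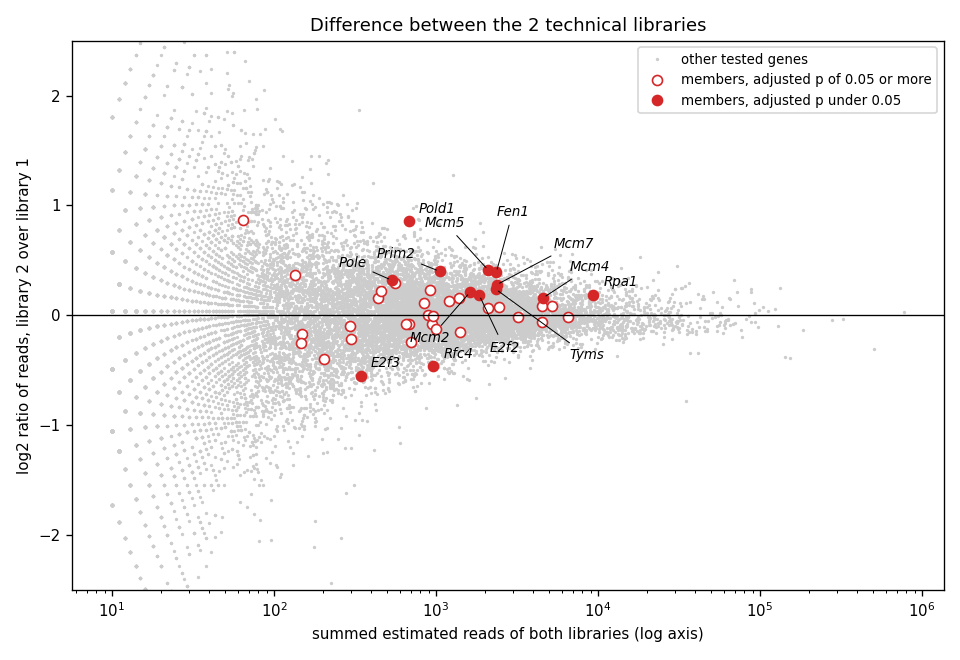
Log2 ratio of reads, library 2 over library 1, against summed estimated reads (log axis), for the 42 genes (red, filled where the adjusted p was under 0.05) and other tested genes (grey, 424 of them beyond the axis). Most filled points lie above 0, and Rfc4 and E2f3 lie below it.

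A second deposited table counted whole reads on the older GENCODE M4 annotation and held 3478224 and 3475360 reads, far fewer than the estimated gene reads. The 42 genes had a median of 54.7% and 59.2% of their M21 reads in it, against 40.1% and 40.3% over 8545 protein-coding genes with 100 reads or more. The share varied from gene to gene. Pcna had 14.1% and 14.7%, and its place by reads among the 42 went from 4 to 17 in library 1 and from 6 to 21 in library 2. E2f2 had 16.4% and 20%, Gins2 18.6% and 28.7%, and Orc1 90.2% and 94.1%. Pcna has the annotated processed pseudogenes Pcna-ps2, with 50 and 18 estimated reads, and Pcna-ps1, with 0. Over the protein-coding genes the kept share was related to the coding share of the transcript with the longest coding sequence (Spearman's rho 0.56 in both libraries, across genes, a description only). The whole-number table therefore orders these genes differently, and the sources used here do not state how it was counted.

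**Figure D5:**
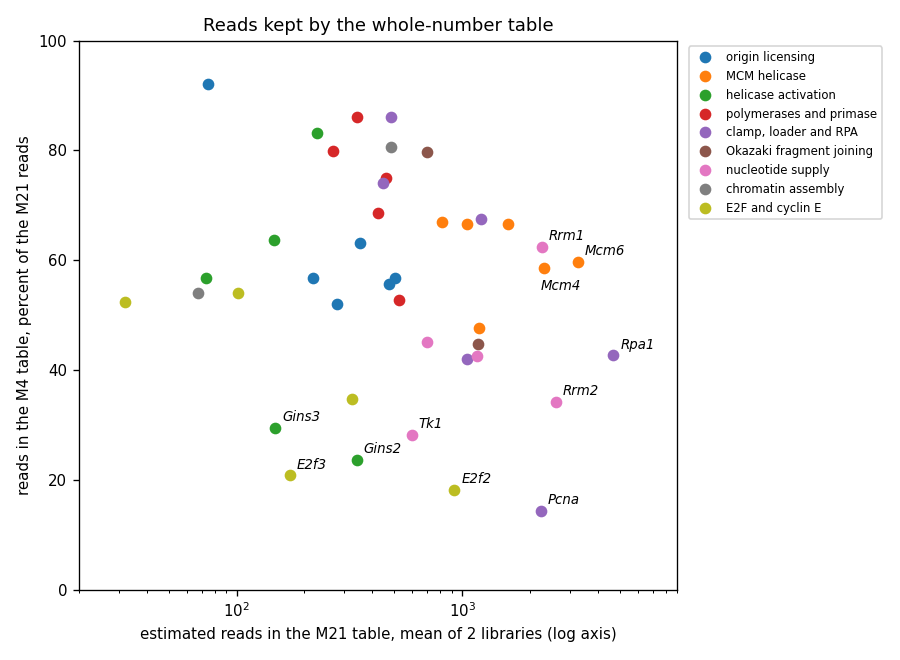
Reads in the M4 whole-number table as a percent of the estimated M21 reads, against M21 reads (log axis), mean of 2 libraries, coloured by role. Pcna lies lowest, with 14.1% and 14.7% in the libraries, and Orc1 lies highest, with 90.2% and 94.1%.

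The wider pathway was described from 5 lists of 91 other genes, all of which were found. Of these, 89 reached 1 TPM in both libraries, 68 reached 10 TPM and 7 reached 100 TPM. Among licensing and firing genes the highest was Orc3 and the lowest Recql4, a RecQ family helicase, at 0.47 ± 0.042 TPM. Among fork genes Rfc2 was highest and Atad5, which unloads the clamp, lowest at 3.68 ± 0.573 TPM. In nucleotide metabolism Samhd1, the hydrolase that breaks down deoxynucleotides and is best known from resting immune cells, reached 479 ± 8.48 TPM, above Rrm2. Among the controls of E2F, Rbl2, the retinoblastoma relative p130 that acts in quiescent cells, was highest at 78.2 ± 0.120 TPM. E2f7, a repressor made in S phase, was lowest at 1.45 ± 0.495 TPM. By the exact binomial test 35 of the 91 differed between the libraries (38.5%, against 24.3% of all genes), 24 of them higher in library 2 and 11 higher in library 1.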

How the data were processed

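Gene and transcript tables on mm10 with GENCODE M21, and a whole-number table with GENCODE M4, were deposited by the authors for both libraries, per the labels and the file listing. The sources used here do not state aligner, quantifier or strandedness. The deposited tables hold, per the file headers, an expected count (estimated reads that need not be whole), TPM scaled by effective length, a posterior SD of the count (treated as a score), and in the transcript table each transcript's percent of its gene's TPM. The other table's deposited count holds whole reads per gene, per the file listing.

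The 42 genes, the other lists, the markers and the tests were chosen with earlier results of these data known. The rule named all 42, and of the other pathway genes the highest and lowest of each list and missing subunits of complexes, except genes that are not reported here. TPM was used as deposited. Expected counts were rounded, and all 17271 genes with a summed count of 10 or more entered a two-sided exact binomial test, doubling the smaller tail, with Benjamini-Hochberg adjustment at 0.05. The test was also run on simulated libraries that carried counting error only, which says nothing about variation beyond counting. Log2 ratios add 0.5 to each count. edgeR 4.0.16 and DESeq2 1.42.0 gave the alternatives (R 4.3.3, Python 3.11.15, pandas 2.3.3, numpy 2.4.6). Other alternatives were a pseudocount of 0.1 in place of 1, reads per kilobase, the M4 counts and each library alone. Symbols and coordinates came from GENCODE M21 and promoter windows from RefSeq on GRCm38.p6. Intervals cover counting error only, and the depth was 15076048 and 14635787 reads. Proteins were not used here.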

Additional observations from a re-analysis of the deposited data

How the results depend on the processing

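No paired analysis was possible because there is 1 group. Dividing estimated reads by the longest coding transcript in place of the effective length gave a median log2 level of 5.23, a span from the lowest to the highest MCM subunit of 3.13, and ratios of 0.475 for Rrm1 to Rrm2, 0.467 for Ccne1 to Ccne2 and 1.60 for Rpa1 to Rpa2. The M4 counts on the same scale gave 6.87, 2.81, 0.866, 0.724 and 1.63 for these. They also gave 22 genes at 100 or more on that scale in both libraries. Ratios by the M4 counts were 0.0334 for Chaf1a to Chaf1b and 1.33 for Prim1 to Prim2. By these counts the MCM median was 3.79 times the median of Orc1, Orc2 and Orc6. These levels are scaled over protein-coding genes alone. As means of both libraries, only Prim1 to Prim2 lay on the other side of 1 under these scales, and E2f3 to E2f1 did so in library 2 by M4 counts (0.561). Group medians for nucleotide supply, the clamp group and the MCM helicase, a comparison added after seeing the data, were 60.9, 69.6 and 67.8 by reads per kilobase, 119.95, 183 and 207 by M4 counts, and 42.6, 40.03 and 42.3 TPM on coding transcripts alone. From library 2 or library 1 alone, 42 and 40 genes reached 1 TPM, 31 and 29 reached 10 TPM, and 4 and 3 reached 100 TPM.

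For the library comparison, TMM and DESeq2 scaling kept the direction and the call of all 42 genes. A summed count of 1 or more raised the number of tests and lost the calls of Pole and E2f2. M4 counts called 1092 of 10978 genes tested (9.95%) and 8 of the 42 (19.0%). They gained E2f1, lost Mcm4, Mcm7, Pole, Tyms, E2f2 and E2f3, and turned the log2 ratios of Mcm10 (0.0165) and Gins2 (0.51), neither of them called. The dispersion of 0.01 left 492 genes in all and 1 of the 42, and calls higher in library 2 were then 41.9% of all calls, against 52.1% by the binomial test. The cause of these shifts was not tested. Depth limits E2f1, Chaf1a, Orc1, Gins1 and Ccne1 most, each with under 100 reads in at least 1 library.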
